A study of Homo sapiens with 9 samples.

Results

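The nuclear genes of the respiratory chain were followed here in human endothelial cells that had lost CCM3. Members were chosen by name alone: every symbol of the count table beginning with NDUF, SDH, UQCR, COX or ATP5 and followed by the letters and digits that mark a subunit. This gave 82 of 28514 symbols, made up of 37 NDUF, 17 ATP5, 14 COX, 10 UQCR and 4 SDH genes. Sorted by the complex the product belongs to, 36 were complex I genes, 4 complex II, 10 complex III, 15 complex IV and 17 complex V. The 10 of complex III include UQCRBP1, a pseudogene copy of UQCRB that is counted there by its name. NDUFA4 carries a complex I name but its product is a subunit of complex IV, and it is counted there. The name patterns miss some true subunits, such as COX4I1 and CYC1, which were followed in a separate list.

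The respiratory chain sits in the inner mitochondrial membrane. Complex I takes electrons from NADH and complex II from succinate, ubiquinone carries them to complex III, cytochrome c carries them to complex IV, and complex IV passes them to oxygen. Complexes I, III and IV pump protons, and complex V, the ATP synthase, makes ATP as the protons flow back. Most subunits are encoded in the nucleus and the rest in mitochondrial DNA. Endothelial cells are known for drawing much of their ATP from glycolysis.

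RNA came from CI-huVEC, an immortalised line of human umbilical vein endothelial cells, all at passage 31. The groups were 3 CCM3 knockout clones (21, 22 and 23), clonal lines edited with CRISPR/Cas9 in exon 3 of the gene, the same 3 clones kept on fibronectin, and 3 wild-type lines. Fibronectin is a matrix protein, and was coated at 5 µg per cm2 for 48 h. CCM3, listed as PDCD10, encodes a scaffold protein that binds GCKIII kinases, and its loss causes familial cerebral cavernous malformations. All groups share the immortalised background, and wild-type lines on fibronectin were not analysed here. The clones differ from the wild-type lines both in genotype and in having passed through clonal selection, and these cannot be told apart. The labels do not say that the wild-type lines came from separate cultures, so the p-values measure the spread between these libraries, which may be technical.

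Total counts ran from 24406001 to 33971610 per library. PDCD10 had 1105, 978 and 1120 counts in the knockout clones, 1052, 852 and 1220 on fibronectin, and 1252, 1439 and 1617 in wild-type lines. As CPM, counts scaled to a common library size with edgeR's TMM correction, it averaged 38.5 ± 3.43, 36.4 ± 1.30 and 49.2 ± 3.49 (SD, n = 3 each). The knockout to wild-type ratio was 0.781, and a count over the whole gene does not read the edited bases. Of 10 endothelial markers all 10 were measured, 7 of them higher in knockout clones, with PECAM1 averaging 1029 CPM in knockout clones, 1032 CPM on fibronectin and 446 CPM in wild-type lines.

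Before the values, 4 promoters are shown. They were picked after values were seen, and other members with changes as large as that of SDHD are not shown. NDUFA8 and ATP5G2 had among the highest fold changes, SDHD had the highest of complex II in knockout clones without fibronectin, and NDUFS1 was the gene that fell. The windows run from 250 bases before to 50 bases after the start of the gene, from RefSeq on GRCh38.p14, and are written in the gene's own direction. Capitals mark matches to 3 motifs of factors known to act on respiratory genes: GCGCATGCG for NRF1, CCGGAAG for ETS factors such as GABPA, and AANATGGCG for YY1, on either strand.
NDUFA8, chr9:122159730-122160029, minus strand: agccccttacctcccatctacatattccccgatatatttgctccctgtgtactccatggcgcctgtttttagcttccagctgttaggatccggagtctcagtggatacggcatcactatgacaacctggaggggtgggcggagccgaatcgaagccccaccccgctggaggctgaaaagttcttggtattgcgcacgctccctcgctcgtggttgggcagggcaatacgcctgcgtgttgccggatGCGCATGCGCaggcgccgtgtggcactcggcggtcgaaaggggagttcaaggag
ATP5G2, chr12:53676034-53676333, minus strand: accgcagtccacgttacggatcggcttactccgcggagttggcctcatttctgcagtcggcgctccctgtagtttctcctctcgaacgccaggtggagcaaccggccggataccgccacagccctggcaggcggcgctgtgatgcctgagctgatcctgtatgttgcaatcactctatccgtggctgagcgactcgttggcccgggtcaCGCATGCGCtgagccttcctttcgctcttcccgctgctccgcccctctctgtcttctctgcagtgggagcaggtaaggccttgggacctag
SDHD, chr11:112086623-112086922, plus strand: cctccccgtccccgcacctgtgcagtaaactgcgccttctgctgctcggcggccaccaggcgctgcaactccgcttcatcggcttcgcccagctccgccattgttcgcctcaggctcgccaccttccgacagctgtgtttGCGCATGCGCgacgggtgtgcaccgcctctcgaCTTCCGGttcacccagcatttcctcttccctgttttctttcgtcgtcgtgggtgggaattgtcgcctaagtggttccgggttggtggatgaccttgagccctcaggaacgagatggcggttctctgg
NDUFS1, chr2:206159395-206159694, minus strand: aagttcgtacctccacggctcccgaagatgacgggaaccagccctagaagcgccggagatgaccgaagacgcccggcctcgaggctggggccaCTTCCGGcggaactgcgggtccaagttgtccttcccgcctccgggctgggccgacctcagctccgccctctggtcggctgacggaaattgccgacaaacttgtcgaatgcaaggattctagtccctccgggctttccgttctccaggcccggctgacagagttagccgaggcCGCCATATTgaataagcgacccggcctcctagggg

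The NRF1 run in NDUFA8 and in SDHD reads as a match on both strands, offset by 1 base, while ATP5G2 holds 1 match on the opposite strand. SDHD also holds an ETS match, and NDUFS1 holds an ETS match and a YY1 match. Over the family, 64 of 82 members had a promoter in the table. NRF1 letters stood in 10 of them (15.6%), against 1.92% of 35116 promoters of the same length. ETS letters stood in 18 (28.1%), against 10.3%, and YY1 letters in 16 (25%), against 3.19%. The 35116 promoters were not matched to the members in gene type or GC content. NDUFB10, COX5A, NDUFA12, NDUFC1 and ATP5F1 had higher log2 fold changes than SDHD in knockout clones, and held none of the 3 motifs. The promoters shown thus do not stand for all members that rose. A match is a run of letters and not a shown binding site.

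In the knockout clones, a part of the respiratory chain transcripts was higher than in wild-type lines, and most did not pass the test. Of the 82 members 76 passed the filter on low counts, and 27 of these were higher at an adjusted p under 0.05 (edgeR quasi-likelihood test, Benjamini-Hochberg over 13802 genes). That is 35.5% of the tested members, against 23% of all genes tested. A single member, NDUFS1, was lower (1.32%, against 27% of all genes), and 48 did not pass. The median log2 fold change was 0.11 over members and -0.03 over all genes. The changes were small: COX7A1 alone was called with a change of more than 2-fold, and 59 of 76 had a positive log2 fold change. In bulk RNA, fewer cells of a type and less RNA per cell cannot be told apart.

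On fibronectin the same clones, set against the same wild-type lines, had 47 members higher (61.8%, against 29% of all genes) and again NDUFS1 lower (1.32%, against 29.6%). The median was 0.26, and 0.01 over all genes. The comparisons share the wild-type libraries and the clones, so they are not independent, and 26 of the members called higher were the same. ATP5C1 was called higher without fibronectin and missed the threshold with it (log2 0.16, adjusted p = 0.062, edgeR), but passed in both under a correction for GC content (adjusted p = 0.0145 and 0.00866). Groups did not overlap for 32 members that were higher and 3 that were lower in knockout clones, and for 40 higher and 1 lower on fibronectin. The share of all genes whose groups did not overlap was not computed, so these counts have no background to be read against.

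**Figure D1:**
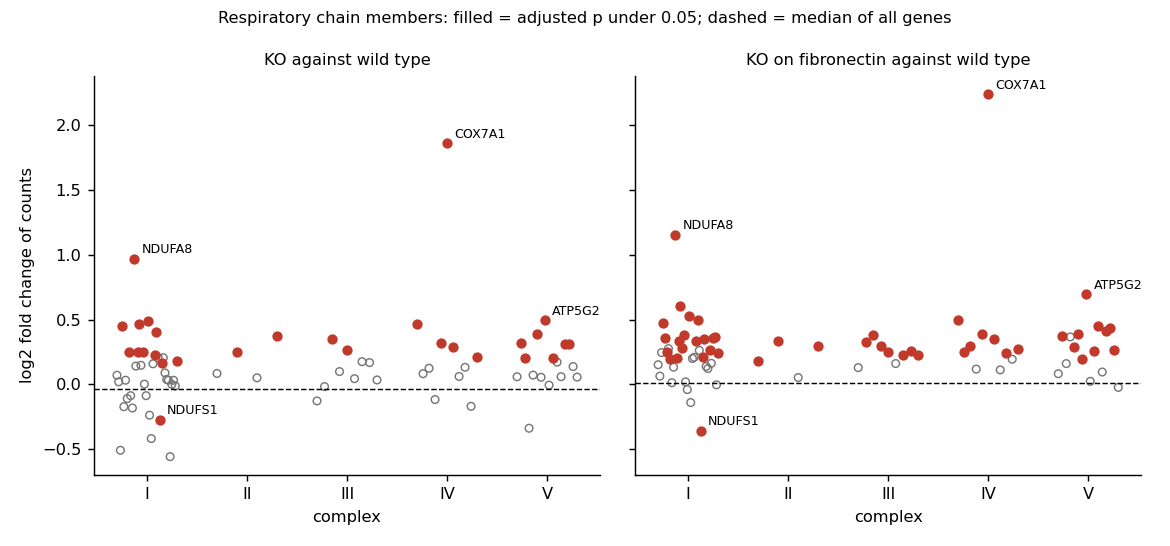
Log2 fold change of counts (vertical axis) for each tested member, by complex, in knockout clones against wild-type lines (left) and in the clones on fibronectin against wild-type lines (right). Filled points passed an adjusted p under 0.05 (edgeR) and the dashed line is the median of all tested genes, -0.03 on the left and 0.01 on the right; COX7A1 and NDUFA8 stand highest in both panels and NDUFS1 is the filled point below the line.

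Summed over all members, levels were 10562, 10348 and 10822 CPM in the knockout clones, 12167, 10777 and 10759 CPM on fibronectin, and 8898, 9468 and 9791 CPM in wild-type lines. Every knockout library, with or without fibronectin, lay above every wild-type library. Members took 1.03 to 1.08% of counts in knockout clones, 1.07 to 1.18% on fibronectin and 0.911 to 0.985% in wild-type lines. The ratio of knockout to wild-type means was 1.08 for complex I, 1.14 for complex II, 1.13 for complex III, 1.121 for complex IV and 1.16 for complex V. On fibronectin the ratios to wild-type were 1.16, 1.17, 1.20, 1.21 and 1.22 in the same order.

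Complex I accepts electrons from NADH through a flavin and a chain of iron-sulphur clusters. In knockout clones 11 of its 36 members were higher (30.6%, against 23% of all genes) and 1 lower (2.78%, against 27%). On fibronectin 19 were higher (52.8%, against 29%) and 1 lower (2.78%, against 29.6%). The median log2 fold changes were 0.05 and 0.25. The 7 core subunits, which carry the flavin and clusters, summed to 688, 696 and 723 CPM in knockout clones, 805, 730 and 734 CPM on fibronectin, and 686, 718 and 713 CPM in wild-type lines. Without fibronectin these sums overlapped between knockout and wild-type, at a ratio of means of 0.996. The 29 accessory subunits summed to 2089, 2032 and 2153 CPM in knockout clones, 2515, 2091 and 2168 CPM on fibronectin, and 1797, 1915 and 1944 CPM in wild-type lines. Their ratio of knockout to wild-type was 1.11, and the groups did not overlap.

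NDUFA8, an accessory subunit of the proton-pumping arm that is folded in the intermembrane space, had the second-highest fold change of the family. It had 114, 108 and 126 CPM in knockout clones, 142, 129 and 126 CPM on fibronectin, and 53.9, 62.4 and 61.6 CPM in wild-type lines. All 6 knockout libraries lay far above the wild-type ones. The fold was 1.96 in knockout clones (log2 0.97 ± 0.08 SE, adjusted p = 2.43e-07, edgeR) and 2.23 on fibronectin (log2 1.16 ± 0.08, adjusted p = 3.7e-08). Its neighbours on chromosome 9, named because NDUFA8 stood out and so chosen after values were seen, did not share 1 direction. LHX6, a transcription factor gene next to it, had 59.6 CPM in knockout clones, 60.7 on fibronectin and 3.25 in wild-type lines, a log2 fold change of 4.19 without fibronectin. Of the other genes among the 4 on each side, STOM (0.97), GSN (0.83), MRRF (0.35) and RBM18 (0.21) were also called higher. TTLL11 (-0.62) and PTGS1 (-2.30) were lower, and DAB2IP (-0.06) did not pass. Whether the region moved together was not tested. The median over 531 tested genes of chromosome 9 was -0.16.

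NDUFS1, the largest core subunit, which carries iron-sulphur clusters near the flavin, went the other way. It had 138, 138 and 132 CPM in knockout clones, 121, 134 and 131 CPM on fibronectin, and 161, 159 and 175 CPM in wild-type lines. Every wild-type library lay above every knockout library. The log2 fold change was -0.27 ± 0.06 in knockout clones (adjusted p = 0.00171, edgeR) and -0.36 ± 0.06 on fibronectin (adjusted p = 0.000173). NDUFV2, a subunit of the NADH-binding module, had 154 ± 5.72 CPM in knockout clones, 155 ± 17.7 on fibronectin and 155 ± 8.46 in wild-type lines, and did not pass in either comparison.

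NDUFS3, NDUFS8 and NDUFV1 did not pass in knockout clones (log2 0.21, 0.00 and 0.03) and passed on fibronectin (0.35, 0.36 and 0.37). The call for NDUFS8 on fibronectin was lost without wild-type line 3 and under a correction for GC content. NDUFS7 had 8.11, 12.02 and 13.8 CPM in knockout clones, 20.6, 13.6 and 21.5 CPM on fibronectin, and 19.98, 18.6 and 11.5 CPM in wild-type lines. Its groups overlapped and no test passed.

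Among the accessory subunits, NDUFB5 and NDUFB10, both of the membrane arm, followed NDUFA8. NDUFB5 had 114, 107 and 107 CPM in knockout clones, 128, 98.7 and 110 CPM on fibronectin, and 73.9, 81.3 and 78.3 CPM in wild-type lines (log2 0.49 and 0.53, adjusted p = 0.000259 and 0.000111, edgeR). NDUFB10 had 83.03, 83.5 and 88.9 CPM in knockout clones, 107, 89.7 and 85.7 CPM on fibronectin, and 59.8, 62.1 and 63.6 CPM in wild-type lines (log2 0.46 and 0.61, adjusted p = 0.00026 and 1.96e-05, edgeR). For both genes the wild-type lines lay below all knockout libraries. NDUFA12 (log2 0.45) and NDUFC1 (0.40) were higher to a like degree, and NDUFA5, NDUFB1, NDUFB2, NDUFB9 and NDUFV3 rose by 0.18 to 0.25. NDUFA2, NDUFA9, NDUFA13, NDUFB11 and NDUFS6 were called on fibronectin without having been called in the clones alone. Under a correction for GC content NDUFA2, NDUFA13, NDUFB11 and NDUFS6 lost that call (adjusted p = 0.103, 0.143, 0.411 and 0.114, edgeR), and NDUFA9 was called in the clones alone as well (adjusted p = 0.043). NDUFA1, NDUFA3, NDUFA6, NDUFA7, NDUFA10, NDUFA11, NDUFB3, NDUFB4, NDUFB6, NDUFB7, NDUFB8, NDUFC2, NDUFS4 and NDUFS5 passed in neither comparison, and the lowest log2 fold change among them was -0.51 for NDUFA11.

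Complex II, or succinate dehydrogenase, belongs both to the chain and to the citric acid cycle and has no mitochondrially encoded subunit. SDHD, a membrane anchor, had 169, 163 and 162 CPM in knockout clones, 168, 144 and 156 CPM on fibronectin, and 122, 128 and 132 CPM in wild-type lines. The groups were apart, with log2 fold changes of 0.37 ± 0.06 (adjusted p = 0.000272, edgeR) and 0.29 ± 0.06 (adjusted p = 0.00132). SDHB, the iron-sulphur subunit, had 119, 118 and 118 CPM in knockout clones, 132, 121 and 124 CPM on fibronectin, and 95.2, 97.8 and 106 CPM in wild-type lines, with log2 fold changes of 0.25 and 0.34 (adjusted p = 0.00283 and 0.000254, edgeR). SDHA, the flavoprotein, averaged 204 ± 16.3, 218 ± 9.74 and 192 ± 1.65 CPM in knockout clones, on fibronectin and in wild-type lines. It passed on fibronectin alone (log2 0.18, adjusted p = 0.0248, edgeR), a call lost under 6 alternatives, including a correction for GC content. SDHC, the other anchor, passed in neither, at 86.7 ± 0.457, 86.8 ± 4.72 and 83.7 ± 3.50 CPM. SDHD exons overlap those of TIMM8B on the opposite strand.

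Complex III passes electrons from ubiquinol to cytochrome c. Of 9 tested members 2 were higher in knockout clones (22.2%, near the 23% of all genes) and 7 on fibronectin (77.8%, against 29%). The medians were 0.10 and 0.25. UQCRB, a small subunit near the ubiquinone site, had 340, 314 and 342 CPM in knockout clones, 387, 307 and 323 CPM on fibronectin, and 238, 265 and 280 CPM in wild-type lines (log2 0.35 and 0.38, adjusted p = 0.00471 and 0.00221, edgeR). UQCRC2, a core protein, had 294, 294 and 285 CPM in knockout clones, 290, 295 and 278 CPM on fibronectin, and 228, 242 and 255 CPM in wild-type lines (log2 0.27 and 0.25, adjusted p = 0.00136 and 0.00174, edgeR). In both genes all knockout libraries lay above the wild-type ones. UQCRC1, UQCRH, UQCRHL, UQCRQ and UQCR11 passed on fibronectin, at log2 0.23 to 0.32, and UQCRH and UQCRHL lost that call when wild-type line 1 or 2 or clone 21 on fibronectin was left out. Under the correction for GC content UQCRC1, UQCRH, UQCRQ and UQCR11 lost the call (adjusted p = 0.0791, 0.0597, 0.149 and 0.177, edgeR). UQCRFS1, the iron-sulphur protein that hands electrons on, had log2 fold changes of 0.04 and 0.16 and passed in neither, nor did UQCR10 (-0.13 and 0.13). UQCRHL, a near-identical copy of UQCRH, held 6.47 ± 0.0808% of the pair's summed FPKM in knockout clones, 6.66 ± 0.433% on fibronectin and 6.51 ± 0.380% in wild-type lines, and reads of the 2 genes may be split between them. FPKM, the authors' value scaled for gene length and depth, allows levels of different genes to be compared.

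Complex IV is cytochrome c oxidase, whose nuclear subunits surround a mitochondrially encoded core. Of 11 tested members 5 were higher in knockout clones (45.5%, against 23% of all genes) and 8 on fibronectin (72.7%, against 29%). The medians were 0.13 and 0.27. COX7A1, the form of subunit VIIa known from heart and skeletal muscle, had the highest fold change of the family but a low level. It had 102, 83 and 96 counts in knockout clones, 197, 81 and 95 on fibronectin, and 21, 32 and 28 in wild-type lines, or 3.38 ± 0.462, 4.41 ± 2.32 and 0.924 ± 0.150 CPM (SD, n = 3 each). All 6 knockout libraries lay above the wild-type ones, and the library of clone 21 on fibronectin lay far above the other clones. The fold was 3.63 in knockout clones (log2 1.86 ± 0.35, adjusted p = 0.00107, edgeR) and 4.73 on fibronectin (log2 2.24 ± 0.35, adjusted p = 0.00019). Without clone 21 on fibronectin the log2 value on fibronectin was 1.74, and the call stood.

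COX7A2, the widely expressed form of the same subunit, had 166, 153 and 165 CPM in knockout clones, 187, 160 and 156 CPM on fibronectin, and 121, 133 and 141 CPM in wild-type lines (log2 0.29 and 0.35, adjusted p = 0.00674 and 0.00164, edgeR). COX7A1 made up 2.03 ± 0.215% of the summed FPKM of this pair in knockout clones, 2.46 ± 1.003% on fibronectin and 0.689 ± 0.0907% in wild-type lines, so COX7A2 held nearly all of it in each group. The exact permutation test on this share gave p = 0.1, two-sided, the smallest that 3 libraries against 3 allow.

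COX5A, a subunit on the matrix side, had 166, 154 and 164 CPM in knockout clones, 185, 141 and 167 CPM on fibronectin, and 105, 116 and 129 CPM in wild-type lines. The groups were apart, with log2 fold changes of 0.47 ± 0.09 (adjusted p = 0.00128, edgeR) and 0.50 ± 0.09 (adjusted p = 0.000677). COX6C (log2 0.32 and 0.39) and NDUFA4 (0.21 and 0.27) also passed in both, and NDUFA4 lost its call in knockout clones without clone 23 or without wild-type line 1 or 2. COX5B, COX6A1 and COX7C passed on fibronectin, at log2 0.24 to 0.29, and COX5B lost its call under the correction for GC content (adjusted p = 0.202, edgeR). COX6B1, COX7B and COX8A passed in neither. Of the tissue-restricted forms in this family, COX6A2 and COX7B2 had 0 counts in all 9 libraries, and COX6B2 and COX8C had at most 1 in any library. NDUFA4L2 and COX4I2, paralogs known to respond to low oxygen, were listed at 0 FPKM in all 6 knockout libraries and at no more than 0.116% of the summed FPKM of their pair in any wild-type library.

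Complex V makes ATP in its F1 head, driven by the turning c ring in the membrane. Of 16 tested members 7 were higher in knockout clones (43.8%, against 23% of all genes) and 10 on fibronectin (62.5%, against 29%). The medians were 0.16 and 0.28. ATP5B, the catalytic beta subunit, had 1236, 1234 and 1242 CPM in knockout clones, 1304, 1334 and 1209 CPM on fibronectin, and 944, 977 and 1049 CPM in wild-type lines. The groups were apart, with log2 fold changes of 0.32 ± 0.06 (adjusted p = 0.000592, edgeR) and 0.37 ± 0.06 (adjusted p = 0.000143). ATP5A1, the alpha subunit, which shares the head with beta in equal number, had 819 ± 13.3 CPM in knockout clones, 832 ± 28.8 on fibronectin and 786 ± 40.9 in wild-type lines, and passed in neither (log2 0.06 and 0.08). ATP5C1, the gamma subunit of the central stalk, passed in knockout clones (0.21, adjusted p = 0.0245, edgeR), a call lost without clone 23 or without wild-type line 1 or 2. ATP5E, the epsilon subunit, passed on fibronectin (0.29), and ATP5D, the delta subunit, in neither (-0.34 and 0.37).

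The c ring is built from 1 protein sequence encoded by 3 genes, ATP5G1, ATP5G2 and ATP5G3, which differ in their import signals. ATP5G2 had 274, 279 and 312 CPM in knockout clones, 361, 331 and 305 CPM on fibronectin, and 190, 215 and 210 CPM in wild-type lines. No knockout library overlapped the wild-type ones, and the log2 fold changes were 0.49 ± 0.08 (adjusted p = 0.000112, edgeR) and 0.70 ± 0.08 (adjusted p = 4.02e-06). ATP5G1 had 101 ± 4.59 CPM in knockout clones, 111 ± 9.24 on fibronectin and 96.8 ± 5.64 in wild-type lines (log2 0.05 and 0.19, the second with adjusted p = 0.0297, edgeR, lost under 5 alternatives). ATP5G3 had 252 ± 5.41, 258 ± 24.1 and 253 ± 15.02 CPM and passed in neither. Per length, ATP5G2 made up 48.6, 48.4 and 50.6% of the summed FPKM of the 3 genes in knockout clones, 51.0, 51.0 and 50.7% on fibronectin, and 41.0, 42.4 and 40.6% in wild-type lines. The share was higher in every knockout library, and the exact permutation p was 0.1, two-sided, the smallest this design allows.

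In the peripheral stalk, which holds the head still, ATP5F1 had 353, 336 and 351 CPM in knockout clones, 373, 328 and 338 CPM on fibronectin, and 253, 260 and 282 CPM in wild-type lines (log2 0.39 in both, adjusted p = 0.000196 and 0.000159, edgeR). ATP5H passed in both (0.21 and 0.26), ATP5O on fibronectin (0.26), and ATP5J in neither. The membrane subunits ATP5J2 (0.31 and 0.41) and ATP5L (0.31 and 0.43) passed in both, and ATP5I (0.17 and 0.45) on fibronectin. ATP5S, coupling factor B, passed in neither. The members that failed the filter were ATP5L2, COX6A2, COX6B2, COX7B2, COX8C and UQCRBP1, with 0 to 5 counts per library.

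**Figure D2:**
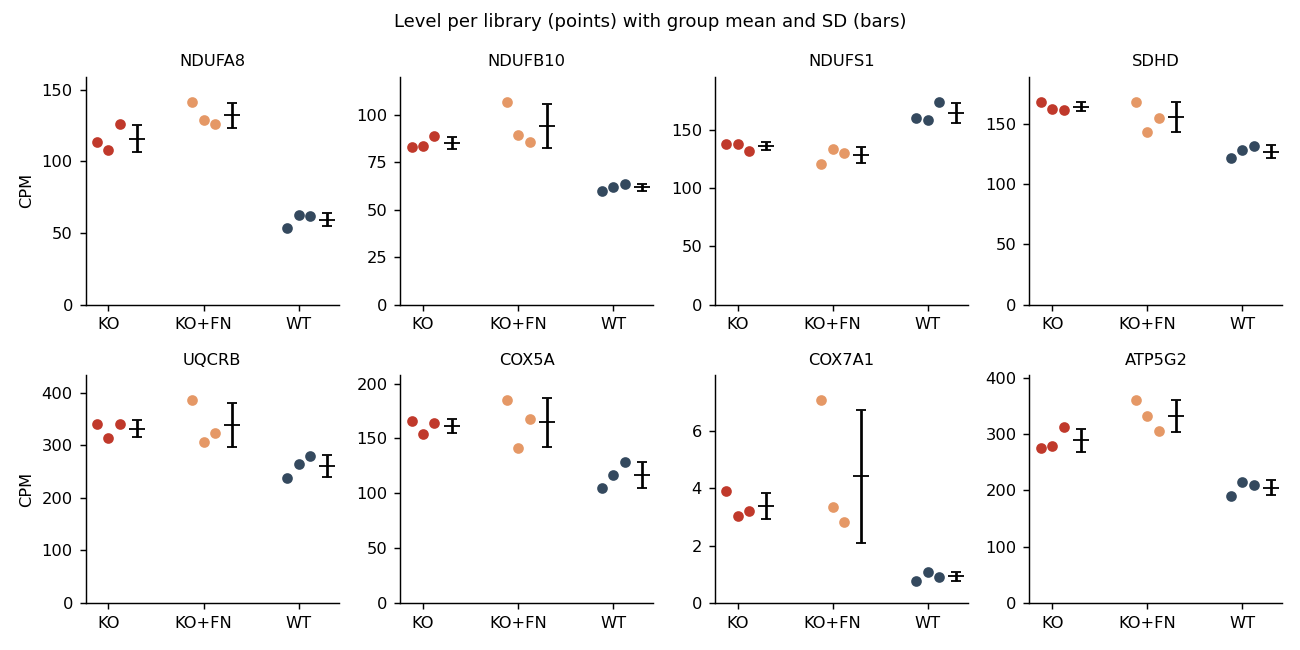
Level in CPM (vertical axis, from 0) of 8 members in each library, with knockout clones on the left, the clones on fibronectin in the middle and wild-type lines on the right; bars are the mean and SD of 3 libraries. NDUFA8 lies between 108 and 142 CPM in the 6 knockout libraries and between 53.9 and 62.4 CPM in wild-type lines, and NDUFS1 is the gene whose wild-type points are highest.

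Per length, the highest tested member was 194 times the lowest in knockout clones, 143 times on fibronectin and 491 times in wild-type lines, where COX7A1 was the lowest. The median was 76.8 FPKM in knockout clones, 79.2 on fibronectin and 66.8 in wild-type lines. Complex IV (170, 177 and 129 FPKM) and complex V (175, 198 and 141 FPKM) had higher medians than complex I (49.3, 60.2 and 55.4 FPKM). ATP5B, at 565 ± 0.416, 578 ± 28.1 and 459 ± 19.8 FPKM, and COX7C, at group means of 550, 584 and 509 FPKM, were the most abundant. NDUFS7, at 2.92, 4.74 and 4.39 FPKM, was the lowest of complex I although its product is a core subunit.

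**Figure D3:**
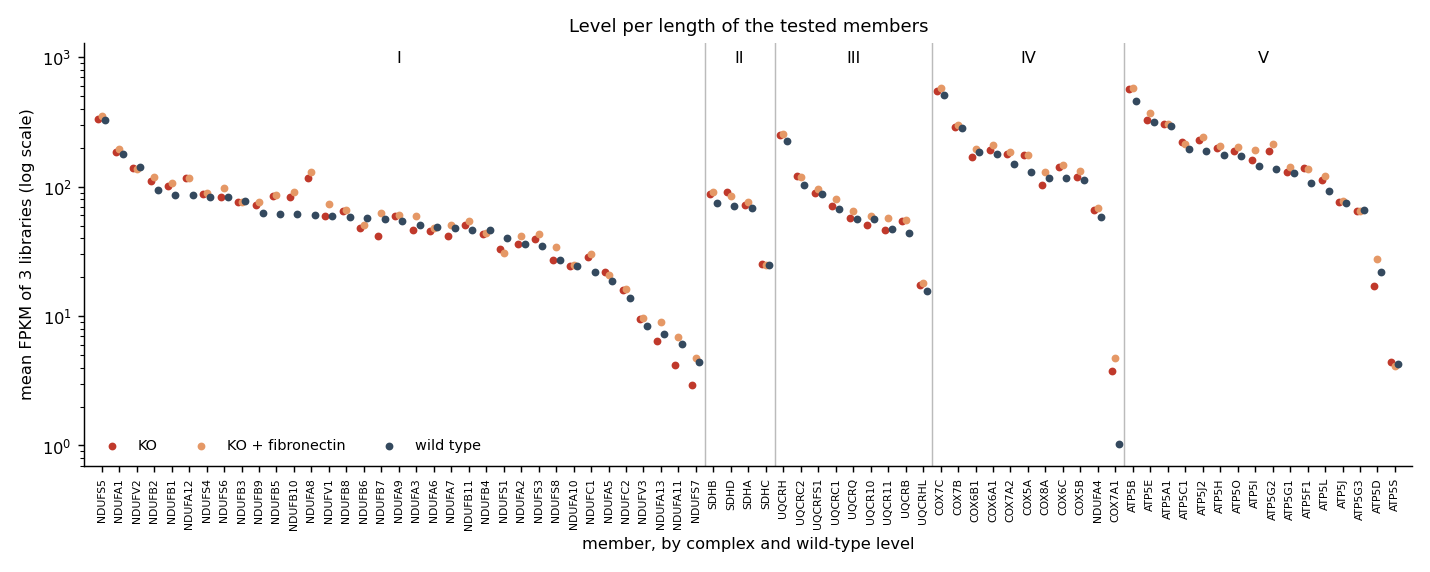
Mean FPKM of 3 libraries (vertical axis, log scale) for tested members, ordered by complex and by wild-type level, in knockout clones, on fibronectin and in wild-type lines. Levels run from 1.04 FPKM for COX7A1 in wild-type lines to 584 FPKM for COX7C on fibronectin, and the 3 groups lie close together for most members.

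Gene length moved with these results. Over 12146 genes, the log2 fold change in knockout clones had r = -0.11 with log2 gene length, and on fibronectin r = -0.17, as a description across genes that share libraries. For the clones on fibronectin against the same clones without it, r was -0.33. Of the members 30 of 76 had a length under 1 kb by the ratio of counts to FPKM. In knockout clones these 30 had a median log2 fold change of 0.11, against 0.09 over all 361 genes of that length. On fibronectin the medians were 0.26 and 0.27. Between 1 and 2 kb, 27 members had 0.14 and 0.32, against 0.10 and 0.24 over 1506 genes. Between 2 and 4 kb, 16 members had 0.12 and 0.23, against 0.03 and 0.10 over 4556 genes. The members under 1 kb were thus near the median of all genes of their length, a set that includes them. The part of length in the counts above was not tested.

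**Figure D4:**
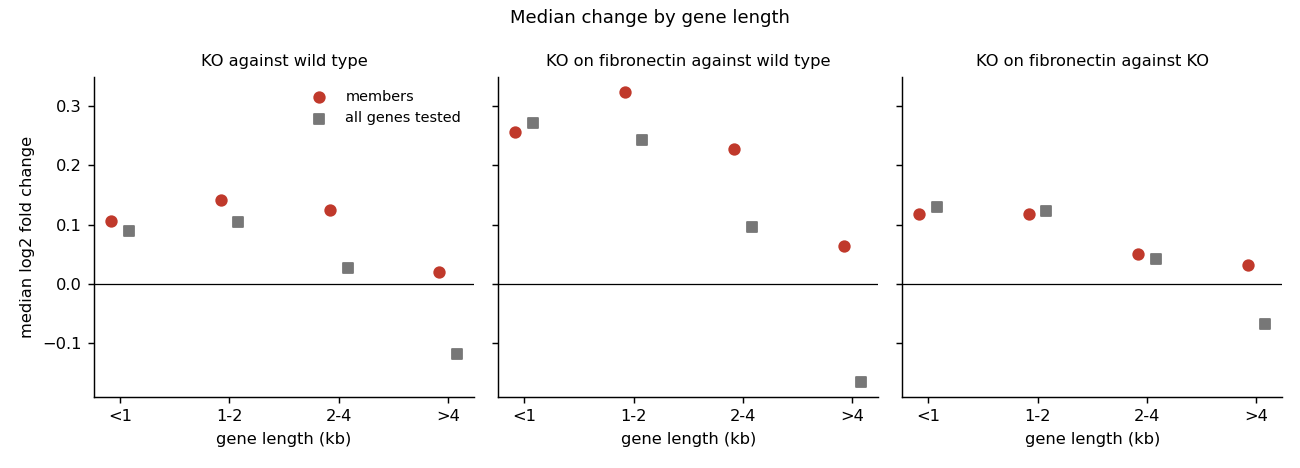
Median log2 fold change (vertical axis) of members (circles) and of all tested genes (squares) by gene length in kb, for the 3 comparisons. In the bin under 1 kb members and all genes lie close together in each panel, at 0.11 and 0.09 in knockout clones against wild-type lines; the bin above 4 kb holds 3 members.

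Set against the same clones without fibronectin, the clones on fibronectin had 0 of 76 members called in either direction (edgeR), where 0.00725% of all genes, a single one, were higher and 0% lower. At an unadjusted p under 0.05 there were 21 of 76 members, against 3078 of 13802 genes. DESeq2 called 7 members higher. The authors' deposited table called 3 higher and 0 lower, of 80 members listed. Shares of all genes for DESeq2 and for the authors' table are not given here. The libraries are paired by clone, and a fit with clone as a block called 4 members higher (5.26%), against 4.97% of all genes, and 0 lower, against 1.81%. The share of members called was thus near that of all genes. These were NDUFA13 (block log2 0.50, adjusted p = 0.0192), COX8A (0.34, adjusted p = 0.0218), NDUFV1 (0.31, adjusted p = 0.035) and NDUFA7 (0.29, adjusted p = 0.0469), all by edgeR. Over the alternatives tried, their adjusted p ran from 0.00782 to 0.449 for NDUFA13, 0.0141 to 0.459 for COX8A, 0.0216 to 0.523 for NDUFV1 and 0.0288 to 0.459 for NDUFA7. With the block and a correction for GC content together, none of these passed and ATP5D alone did.

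NDUFA13, an accessory subunit also known as GRIM-19, had 35.5, 28.1 and 27.1 CPM on fibronectin and 18.8, 20.5 and 23.5 CPM without it, in clones 21, 22 and 23. COX8A, a small subunit of complex IV, had 86.9, 69.5 and 83.1 CPM on fibronectin and 56.4, 62.4 and 67.5 CPM without it. NDUFV1, the NADH-binding subunit, had 161, 135 and 140 CPM on fibronectin and 102, 120 and 124 CPM without it. Each was higher on fibronectin in all 3 clones, and the groups did not overlap.

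The clones differed from each other. In clone 21, 72 of 76 members were higher on fibronectin, with a median log2 difference of 0.24, in clone 22 there were 56, with a median of 0.07, and in clone 23 there were 37, with a median of -0.001. The medians over all genes were 0.01, 0.01 and 0.00. The summed level of the members was 1.15, 1.04 and 0.994 times that without fibronectin in clones 21, 22 and 23. Without clone 21 on fibronectin, the median of the members against knockout clones was 0.01 in place of 0.09.

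Transcript GC content moved with these differences. Across the 76 members, the log2 difference of a clone had r = 0.72, 0.55 and 0.56 with GC content in clones 21, 22 and 23, and over 12785 genes r = 0.66, 0.47 and 0.44, given as descriptions over genes that share libraries. The 7 members with at least 60% GC were ATP5D, COX7A1, NDUFA11, NDUFA13, NDUFB11, NDUFB7 and NDUFS7. They summed to 266, 182 and 222 CPM on fibronectin and 145, 164 and 180 CPM without it in clones 21, 22 and 23, and to 192, 199 and 156 CPM in wild-type lines. Their sums thus varied among libraries of 1 group as well as between groups. Within groups, the deviation of a library from its group mean had r from -0.56 in wild-type line 3 to 0.47 in wild-type line 2 with GC content, over 9215 genes. With a correction for GC content, the counts against wild-type lines were 29 higher and 2 lower in knockout clones, and 40 higher and 1 lower on fibronectin. Shares of all genes called with this correction are not given here, so these counts are not set against a background. Members that passed only with this correction were UQCRC1 and NDUFA9, higher, and NDUFA7, lower (log2 -0.18, adjusted p = 0.0412, edgeR), in knockout clones. On fibronectin they were ATP5C1, COX7B, NDUFS4, SDHC and UQCRFS1, all higher. The cause of the GC pattern was not tested.

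**Figure D5:**
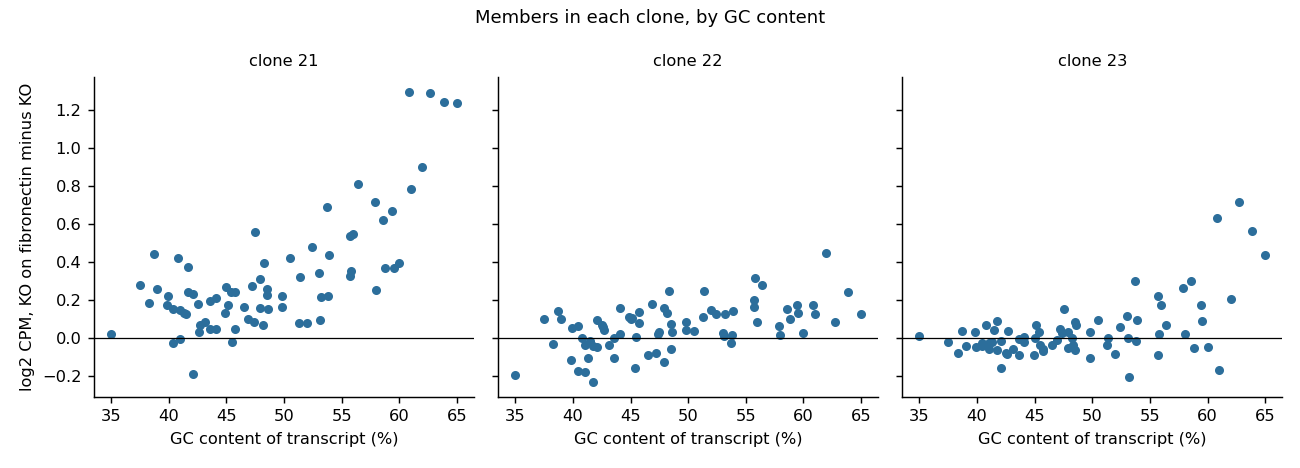
Log2 CPM on fibronectin minus that without it (vertical axis) for each tested member, against the GC content of its transcript in percent (horizontal axis), in clones 21, 22 and 23. Points rise with GC content in all 3 panels, with r = 0.72, 0.55 and 0.56, and clone 21 holds the highest values, up to 1.29 for NDUFS7.

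Related genes were followed in lists chosen by function. Their counts are to be read against 23% of all genes higher and 27% lower in knockout clones. On fibronectin 29% of all genes were higher and 29.6% lower. Subunits outside the name patterns had 4 of 8 tested members higher in knockout clones and none lower: ATPIF1, an inhibitor of ATP synthase (log2 0.38), C14orf2 (0.37), NDUFAB1 (0.28) and COX4I1 (0.23). The median of this list was 0.18. On fibronectin 5 of 8 were higher. Names of the 13 mitochondrially encoded subunits matched 0 rows, so those genes were not analysed here.

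Assembly factors help build the complexes without staying in them. Of 15 for complex I, 4 were higher and 1 lower in knockout clones, with a median of 0.13. TIMMDC1 had 88.0 ± 5.33 CPM in knockout clones, 92.8 ± 12.8 on fibronectin and 61.1 ± 3.25 in wild-type lines (log2 0.52, adjusted p = 0.00031, edgeR), while NDUFAF5 was lower (-0.33). Of 10 for complexes II and III, 3 were higher and 1 lower, among them TTC19 (0.36) and SDHAF2 (0.37), which adds the flavin to SDHA. Of 25 for complexes IV and V, 7 were higher and 2 lower, led by COX14 (0.54) and TMEM70 (0.42).

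Regulators of mitochondrial biogenesis act on many nuclear genes of mitochondrial proteins. Of 14 tested, 0 were higher and 2 lower in knockout clones (14.3%, against 27% of all genes, edgeR), with a median of -0.08. At an unadjusted p under 0.05 there were 5 of 14, against 7738 of 13802 genes. The 2 lower genes were PPRC1 and GABPA. PPRC1, a coactivator of the PGC-1 family, had 49.9 ± 4.18, 55.8 ± 6.13 and 63.8 ± 0.804 CPM in knockout clones, on fibronectin and in wild-type lines (log2 -0.35, adjusted p = 0.00295, edgeR). GABPA is an ETS factor whose exons overlap ATP5J on the opposite strand (-0.18, adjusted p = 0.0366, edgeR). On fibronectin 2 were higher and 2 lower. Members with NRF1 letters in the promoter had 4 of 10 called higher in knockout clones and a median of 0.15, against 14 of 50 and 0.08 for members without. For ETS the figures were 4 of 18 and 0.08 with the letters, and 14 of 42 and 0.09 without. For YY1 they were 1 of 16 and 0.04 with the letters, and 17 of 44 and 0.14 without.

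In the citric acid cycle and pyruvate dehydrogenase list, 8 of 22 genes were higher and 4 lower in knockout clones, with a median of 0.09. PDK4, a kinase that switches pyruvate dehydrogenase off, had 29.5 ± 2.94 CPM in knockout clones, 28.4 ± 3.25 on fibronectin and 3.92 ± 0.371 in wild-type lines (log2 2.91, adjusted p = 3.2e-10, edgeR). PDHB, a subunit of that enzyme (0.50), and OGDH (0.57) were higher, and IDH2, the mitochondrial NADP-dependent isocitrate dehydrogenase, was lower (-0.66). In glycolysis, 8 of 21 were higher and 7 lower, with a median of 0.06. The glucose transporter gene SLC2A1 was higher (0.71), and PFKFB3 (-0.82), PFKP (-0.79) and HK1 (-0.49), which act at its early, regulated steps, were lower. On fibronectin 11 of the 21 were higher and 5 lower. The list summed to 15090 to 16730 CPM in knockout clones, 17426 to 17916 on fibronectin and 13842 to 14159 in wild-type lines. The ratios to wild-type were 1.14 and 1.25, against 1.13 and 1.20 for all members.

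UCP2, an uncoupling protein of the inner membrane, had 12.9 ± 1.76 CPM in knockout clones, 17.7 ± 2.68 on fibronectin and 2.38 ± 0.252 in wild-type lines (log2 2.44, adjusted p = 1.91e-08, edgeR). In its list of carriers 5 of 11 were higher and 0 lower, including SLC25A3, the phosphate carrier that feeds complex V (0.22). Of 12 genes of coenzyme Q synthesis 5 were higher and 1 lower, led by ADCK3 (0.70). Of 21 import and outer membrane genes 5 were higher and 4 lower, and of 14 genes of cristae and dynamics 4 were higher and 1 lower.

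Markers of other cell types moved as well. Summed endothelial markers ran from 5932 to 6345 CPM in knockout clones, 5983 to 6962 on fibronectin and 2412 to 2670 in wild-type lines, and 7 of 10 were higher in knockout clones. CDH5, ERG and EMCN had negative log2 fold changes (-0.06, -0.10 and -1.34) and did not pass, and on fibronectin ERG (-0.18) and EMCN (-1.61) were lower. Smooth muscle and pericyte markers summed to 20.4 to 21.9 CPM in knockout clones, 30.1 to 41.5 on fibronectin and 127 to 141 in wild-type lines, and 2 of 3 tested were lower, RGS5 and TAGLN. Epithelial markers summed to 291 to 308, 327 to 380 and 190 to 198 CPM in knockout clones, on fibronectin and in wild-type lines, nearly all of it KRT18. Leukocyte markers summed to 27.5 to 28.6, 32.2 to 34.8 and 17.3 to 18.03 CPM in the same order, nearly all of it CD68, a lysosomal protein, and 4 of 4 tested were higher. Fibroblast and muscle markers stayed under 3 CPM in sum in every library, and MYH11, DCN, KRT19 and PTPRC were at or near 0. The part of these in the results was not tested.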

How the data were processed

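Poly-A RNA of 9 libraries was sequenced from stranded TruSeq libraries, per the labels' protocols. The authors deposited raw counts per gene symbol, made with STAR and HTSeq on hg19 (GRCh37) per the submitters' processing notes. Tool versions and how strand was handled in counting are not given in the sources used here. FPKM values were deposited by the authors for each gene and library, with tables of their own comparisons with log2 fold changes and adjusted p-values per the file headers.

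From the counts, edgeR 4.0.16 (R 4.3.3) fitted all 9 libraries at once with TMM scaling, filterByExpr (minimum count 10, total 15), robust quasi-likelihood F tests and Benjamini-Hochberg adjustment over 13802 genes. Standard errors come from the fold change and F. Gene lengths are counts over FPKM and total counts. Differences within a clone use log2(CPM + 0.5). DESeq2 1.42.0, other scalings, no filter, 2-group fits, each library left out, and a clone block were alternatives, and corrections for GC content (GENCODE 29 transcripts) were added after seeing the data. Fits were tested on simulated data. By clone number in the labels, both knockout groups hold 1 set of clones: deviations correlated at r = 0.30, 0.43 and 0.50 within clones and -0.47 to 0.07 between clones, over 9383 genes.

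Members and lists were chosen with earlier results of these data known. Named genes were PDCD10, the SDH genes, core subunits of complex I and F1, paralog groups, the 6 highest and 6 lowest called changes against wild-type, the 6 smallest p-values on fibronectin, members failing the filter, and up to 4 genes per list. The values of 1 member are not reported here. Other members were named to complete the count of each complex, after their values were seen. By GENCODE 29 names, 43 members have a pseudogene copy, 20 share exons with another gene on the same strand and 26 on the opposite strand, so their counts may mix. Within groups, libraries differed by more than sampling noise (chi-square per degree of freedom 5.37 to 21.8).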

Additional observations from a re-analysis of the deposited data

How the results depend on the processing

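Across the alternatives, 18 to 35 members were higher in knockout clones against wild-type lines when 1 library was left out, and 24 to 36 under the others. On fibronectin the ranges were 33 to 53 and 40 to 48. The count of members lower in knockout clones was 1, and became 2 under total count scaling, 2 in a fit of the 2 groups, 2 with GC correction, and 1 to 3 with 1 library left out, the 3 without wild-type line 3 or clone 22 on fibronectin. On fibronectin it was 1 to 2 with 1 library left out. Against the same clones without fibronectin, the count of higher members was 0, and became 7 with DESeq2, 4 without a filter on low counts, 4 with the replicate block, 1 with the block and GC correction, and 0 to 9 with 1 library left out, the 9 without clone 22 on fibronectin. The cause of these changes was not tested. Apart from the fit with the block, shares of all genes called under the alternatives are not given here. The changes may therefore not be particular to the members. No result reversed. Of single genes under the alternatives, 36 values lost their call, 48 gained one and 1080 did not change side. The block also called genes of the related lists that the unblocked fit did not. Among them were 3 of 21 glycolysis genes and 2 of 14 regulators of biogenesis, all higher, against 4.97% of all genes. With 3 libraries a group, small changes of low or GC-rich members were not resolved.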
